A study of Mus musculus with 8 samples.

Results

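The genes that build the axoneme of motile cilia, and those that assemble it, were followed in the olfactory mucosa of mice with and without a conditional deletion of the LIM homeodomain gene Lhx2. Members were taken by symbol, as 33 listed genes plus every gene whose single symbol was Dnah followed by a number (dynein axonemal heavy chains). The platform annotation paired 47 of these 48 genes with 110 transcript clusters of their own, out of 19938 genes and 23410 named clusters in all. A transcript cluster is the set of probes that the array assigns to 1 gene. Ccdc103, a dynein arm assembly factor, was represented only by a cluster shared with Fam187a and was left out of the counts (log2 difference -0.045 ± 0.054, adjusted p = 0.725).

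Each of 8 mice at postnatal day 26 (P26), on a mixed 129 x C57BL/6J background, gave 1 Affymetrix Mouse Gene 1.0 ST array of olfactory mucosa. The 4 knockouts were OmpCre:Lhx2(fl/fl). Of the 4 littermate controls, replicates 2 to 4 were OmpCre:Lhx2(fl/+) and replicate 1 was Lhx2(fl/+) without Cre, so every mouse carried at least 1 floxed allele and 7 of the 8 carried Cre. Cre was expressed from the Omp locus, a driver active in mature olfactory sensory neurons (OSNs), so that locus was modified in the mice with Cre. The study describes the deletion as incomplete. The arrays measured the whole mucosa, in which fewer cells of a type and less RNA per cell cannot be told apart.

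A motile cilium is a bundle of doublet microtubules around a central pair. Outer and inner dynein arms on the doublets make it beat, docking complexes and a molecular ruler place the arms, and radial spokes, the nexin-dynein regulatory complex and the central apparatus control them. The arms are put together in the cytoplasm by assembly factors, and Foxj1 is the transcription factor that turns the programme on. In the nasal cavity, beating cilia belong to multiciliated cells of the respiratory epithelium. The cilia of OSNs carry the odorant transduction proteins, have the same ring of doublets but lack dynein arms in mammals, and do not beat actively.

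Promoter sequence from RefSeq (build GRCm38.p6, 250 bases before to 50 bases after the annotated start) was found for 37 of the 47 measured members. Each window was searched on both strands for GTTGCC, 1 arm of the X-box bound by RFX factors, which regulate ciliary genes. It was also searched for TGTTTAC, a forkhead motif, and for TAATTA, a LIM homeodomain motif. None of the 3 motifs contains another. Of the called members described below, 3 that were lower in the knockouts and carried the X-box arm are shown first, each with it in capitals on either strand (GTTGCC or GGCAAC).
Zmynd10 promoter, chr9:107547054-107547353, plus strand: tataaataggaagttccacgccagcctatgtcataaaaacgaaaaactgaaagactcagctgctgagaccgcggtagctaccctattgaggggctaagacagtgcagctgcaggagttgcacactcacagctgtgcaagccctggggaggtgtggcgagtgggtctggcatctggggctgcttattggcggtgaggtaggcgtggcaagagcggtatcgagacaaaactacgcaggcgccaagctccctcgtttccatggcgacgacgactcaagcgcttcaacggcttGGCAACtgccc
Tekt1 promoter, chr11:72361833-72362132, minus strand: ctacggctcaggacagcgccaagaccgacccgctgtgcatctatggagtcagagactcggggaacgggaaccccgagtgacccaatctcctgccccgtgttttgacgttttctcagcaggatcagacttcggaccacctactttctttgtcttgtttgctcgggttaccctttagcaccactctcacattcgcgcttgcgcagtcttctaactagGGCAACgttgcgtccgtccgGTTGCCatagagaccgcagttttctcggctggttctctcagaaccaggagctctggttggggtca
Spef2 promoter, chr15:9748819-9749118, minus strand: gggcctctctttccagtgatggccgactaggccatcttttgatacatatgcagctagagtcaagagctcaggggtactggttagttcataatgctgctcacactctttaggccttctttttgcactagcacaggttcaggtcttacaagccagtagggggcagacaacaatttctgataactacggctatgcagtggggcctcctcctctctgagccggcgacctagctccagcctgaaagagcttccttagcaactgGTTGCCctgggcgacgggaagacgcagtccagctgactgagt
The member with the largest decrease, Dcdc2a, and the only member called higher, Dnah12, held none of the 3 motifs in this window and are shown without capitals.
Dcdc2a promoter, chr13:25055754-25056053, plus strand: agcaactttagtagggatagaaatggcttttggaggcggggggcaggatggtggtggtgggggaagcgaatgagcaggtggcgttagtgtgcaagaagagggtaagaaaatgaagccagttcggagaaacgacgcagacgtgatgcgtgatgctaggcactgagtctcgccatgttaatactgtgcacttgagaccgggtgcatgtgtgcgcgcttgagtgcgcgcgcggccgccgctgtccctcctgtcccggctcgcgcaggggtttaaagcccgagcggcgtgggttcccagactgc
Dnah12 promoter, chr14:26691304-26691603, plus strand: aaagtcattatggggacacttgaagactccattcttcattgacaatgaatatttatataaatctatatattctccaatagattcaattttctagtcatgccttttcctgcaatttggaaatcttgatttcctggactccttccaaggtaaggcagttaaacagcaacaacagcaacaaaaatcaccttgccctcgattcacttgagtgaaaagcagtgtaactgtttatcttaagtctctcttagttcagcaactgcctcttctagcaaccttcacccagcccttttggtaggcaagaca
The X-box arm stood at base 40 after the start of Zmynd10, at base 9 after the start of Spef2, and 15 and 35 bases before the start of Tekt1, for which the second window in the table held none.

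The X-box arm was found in the windows of 16 of 37 members (43.2%), against 14.1% of the 27025 genes with a window. It was found in 3 of 9 members called lower (33.3%) and in 13 of 27 that were not called (48.1%). By role, 12 of 23 members other than heavy chains (52.2%) and 4 of 14 dynein heavy chains (28.6%) carried it. The forkhead motif was found in 1 member, Dnah17 (2.7%, against 4.05% of all genes), and the LIM homeodomain motif in 0 of 37 (against 6.12%). These are matches of letters in windows of 300 bases and were not tested.

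Values are log2 expression as deposited, and differences are knockout minus control ± SE from a limma fit over all 23410 named clusters, with Benjamini-Hochberg adjustment over all of them. A gene was called at an adjusted p under 0.05. Lhx2 itself was between 12.29 and 12.39 in controls and between 11.99 and 12.17 in knockouts (-0.25 ± 0.06, adjusted p = 0.0383), which was not called in 7 of 8 leave-outs. Omp was between 13.22 and 13.78 in controls, highest in control 1, which lacked Cre, and between 12.37 and 12.88 in knockouts (-0.84 ± 0.15, adjusted p = 0.00568). Marker lists of mature OSNs, immature OSNs, sustentacular cells and the respiratory and glandular epithelium had mean log2 levels of 10.83 or more on every array. The first digit of the mouse number in the sample titles (5, 7 or 9) was treated as a possible batch, here called a title series. Series 5 held 2 mice of each group, and series 7 and 9 held 1 of each.

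Of the 47 members, 15 were called lower in knockouts (31.9%, against 6.29% of all named clusters), 1 was called higher (against 2.1%) and 31 were not called. Without the odorant receptors and trace amine-associated receptors, which make up most of the clusters called lower, 2.28% of 22260 named clusters were called lower and 2.21% higher. The 4 knockouts lay below all 4 controls for 16 members (7.83% of all named clusters) and above them for 1 (6.42%), and without receptors these shares were 3.83% and 6.75%. At an unadjusted p under 0.05, 21 members were lower (8.87% of all named clusters) and 1 was higher (9.3%). The median difference was -0.20 over the members and 0.048 over all named clusters, on the deposited scale. The sign of that median depends on the scale. Centring each array on the 19 markers of the mature OSN list, which fell by 0.53 on average, moved the members' median to 0.33 and that of all named clusters to 0.58. The 19 include Omp (-0.84), whose locus was modified in the mice with Cre, and Cnga4 (-2.02), and their median difference was -0.44. The study rescaled its values to a much longer list of mature OSN mRNAs, which is not used here. For that list it reports a small average reduction in OmpCre:Lhx2(fl/fl) mice, less than the fall of the 19 markers. A shift under 0.20 would leave the members' median negative, though one close to 0.20 would leave almost nothing of it. Foxj1 would stay negative under a shift below 0.42. The study's rescaling was not applied here, so the size of the members' median after it is not given. With the 19 markers, 1 member was called lower (3.58% of all named clusters) and 29 higher (92.6%). The members' median lay 0.25 below that of all named clusters. This gap is the same on either scale by construction, because the centring adds the same amount to every difference.

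The members did not move as a block. Among the 32 members other than dynein heavy chains, 28 had a negative difference on the deposited scale, 14 were called lower, and the median was -0.32 (0.22 after centring on the mature OSN list). Among the 15 dynein heavy chains, 4 had a negative difference, 1 was called lower and 1 higher, and the median was 0.041 (0.57 after centring). Over all named clusters 6.29% were called lower and 2.1% higher (2.28% and 2.21% without receptors). A count of 1 among 15 genes is too small to set apart from these shares. Below the median level of all named clusters (8.50) lay the heavy chains Dnah1, Dnah2, Dnah7a, Dnah7b, Dnah7c, Dnah8, Dnah10, Dnah14 and Dnah17. Among the other members, Armc4, Drc1, Spag6, Spag16, Spag17, Tekt2, Dnaaf2 and Dnaaf3 also lay below it. Role and signal level were not separated, and the contrast between these subsets is a description that was not tested.

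**Figure D1:**
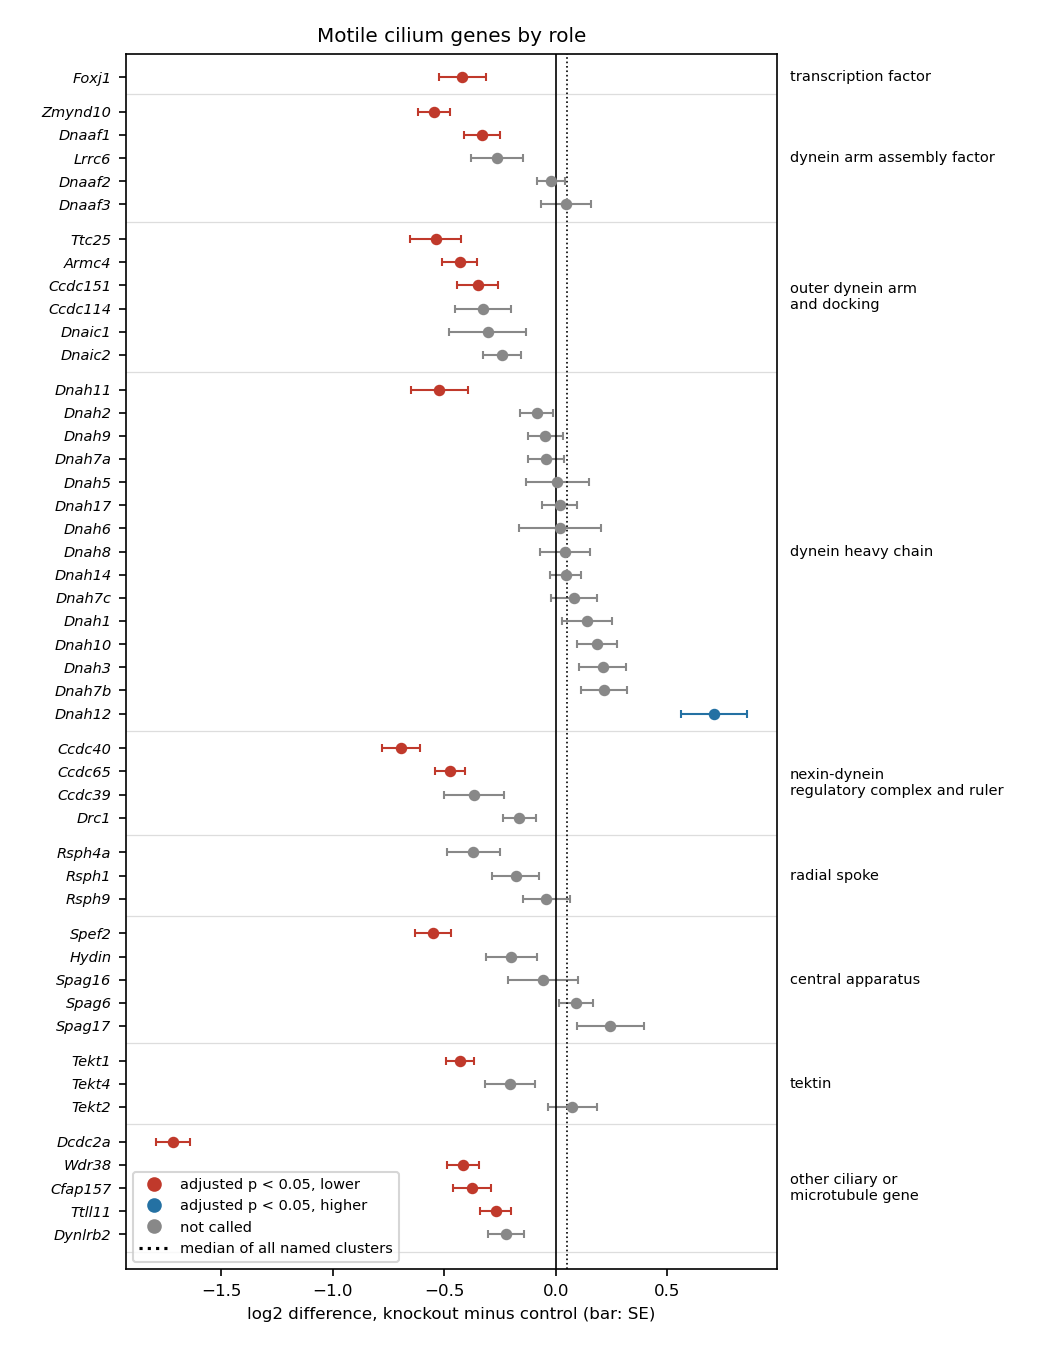
Log2 difference between knockout and control olfactory mucosa (horizontal axis, bar: SE) for each of the 47 measured members, grouped by role. Red points are the 15 members called lower, the blue point is Dnah12, and the dotted line is the median of all named clusters (0.048); after centring on the mature OSN list the 10 called members Ccdc65, Tekt1, Wdr38, Armc4, Cfap157, Dnaaf1, Dnah11, Foxj1, Ttll11 and Ccdc151 turned positive.

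Foxj1 was 9.69, 9.74, 9.51 and 9.59 in controls 1 to 4, and 9.48, 9.26, 9.04 and 9.06 in knockouts 1 to 4. The groups did not overlap, although the highest knockout and the lowest control lay close together. Foxj1 fell by 0.42 (SE 0.10, limma adjusted p = 0.0335), which on the linear scale means that it fell by 25.2%. The difference was -0.34 within title series 5, -0.47 within series 7 and -0.53 within series 9. Its call was lost when any of 6 arrays was left out (controls 1, 2 and 4, knockouts 2, 3 and 4), with an adjusted p of up to 0.106, and after centring on the mature OSN list the difference was 0.11.

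Among the 5 measured dynein arm assembly factors, Zmynd10 and Dnaaf1 fell and 3 were not called, with a median of -0.26 (0.27 after centring on the mature OSN list). Zmynd10, a cytoplasmic factor needed for stable dynein arms, was 9.30, 9.37, 9.23 and 9.12 in controls and 8.77, 8.79, 8.66 and 8.62 in knockouts. The highest knockout lay well below the lowest control, and the difference was -0.55 ± 0.07 (adjusted p = 0.000689). Dnaaf1, a leucine-rich repeat assembly factor, was 8.84, 8.90, 8.73 and 8.71 in controls and 8.50, 8.29, 8.47 and 8.61 in knockouts. Here knockout 4 came close to the controls, the difference was -0.33 ± 0.08 (adjusted p = 0.0312), and the call was lost without control 1 or 2 or without knockout 1, 2 or 3 (adjusted p up to 0.0994). Lrrc6, which acts with Zmynd10, was 9.95, 9.81, 10.37 and 10.09 in controls and 9.82, 9.62, 9.86 and 9.86 in knockouts, so the groups overlapped (-0.26 ± 0.12, adjusted p = 0.265). Dnaaf2 and Dnaaf3, which act in the same assembly step, showed differences of -0.022 and 0.045.

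All 6 genes of the outer dynein arm and its docking complex had negative differences on the deposited scale, with 3 called lower and a median of -0.34 (0.19 after centring on the mature OSN list). The 3 called were docking complex genes. Ttc25 was 9.99, 10.10, 10.45 and 10.21 in controls and 9.55, 9.47, 9.79 and 9.78 in knockouts. Controls varied among themselves almost as much as the groups differed, with control 3 highest, but no knockout reached a control (-0.54 ± 0.11, adjusted p = 0.0127). Armc4 was 8.23, 8.44, 8.51 and 8.25 in controls and 7.88, 7.93, 8.01 and 7.89 in knockouts, again without overlap (-0.43 ± 0.08, adjusted p = 0.00507). Ccdc151 ranged from 8.83 to 9.03 in controls and from 8.34 to 8.75 in knockouts (-0.35 ± 0.09, adjusted p = 0.0415), and leaving out any array but knockout 3 ended its call (adjusted p up to 0.101). The docking gene Ccdc114 (-0.33) and the intermediate chain genes Dnaic1 (-0.31) and Dnaic2 (-0.24) did not pass the test, with adjusted p between 0.144 and 0.406. Dnaic2 passed with a block for title series (adjusted p = 0.0216) and with array weights (adjusted p = 0.0413).

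The dynein heavy chains are the motor subunits of the arms. Of the 15, 13 were not called, and their differences ran from -0.085 for Dnah2 to 0.22 for Dnah7b. Dnah5 and Dnah9, the outer arm motors of airway cilia, differed by 0.0055 and -0.049, with SEs of 0.14 and 0.078. The inner arm motor gene Dnah3, the brightest of the family, was 9.87, 10.02, 10.28 and 9.86 in controls and 10.15, 10.07, 10.28 and 10.36 in knockouts. Its groups overlapped (0.21 ± 0.11, adjusted p = 0.350). Closely related heavy chains share sequence, and 2 further clusters were assigned jointly to Dnah7a, Dnah7b and Dnah7c, with differences of 0.025 and 0.0029.

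Dnah11 and Dnah12 moved in opposite directions. Dnah11, an outer arm motor gene, was 10.08, 10.07, 10.55 and 10.31 in controls and 9.66, 9.47, 9.92 and 9.86 in knockouts. It was lower by -0.52 ± 0.13 (adjusted p = 0.0322), lost its call without control 3 or 4 or without knockout 1, 2 or 4 (adjusted p up to 0.0903), and differed by 0.0085 after centring on the mature OSN list. Dnah12, an inner arm motor gene, was 8.50, 8.58, 9.13 and 8.58 in controls and 9.32, 9.30, 9.28 and 9.72 in knockouts. Control 3 stood apart from the other controls and knockout 4 from the other knockouts, and still no value of the groups overlapped. Dnah12 rose by 0.71 ± 0.15, a ratio of 1.63 (adjusted p = 0.0137), and it was called in all 8 leave-outs. Within title series the difference was 0.77 in series 5, 0.15 in series 7, which holds control 3, and 1.14 in series 9. A second cluster of Dnah12 gave 0.79 ± 0.17 (adjusted p = 0.0151), while the nearest measured genes Pde12 and Asb14 differed by 0.015 and 0.10.

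The nexin-dynein regulatory complex links neighbouring doublets, and Ccdc39 and Ccdc40 form the ruler that spaces the inner arms and spokes. All 4 genes of this group had negative differences on the deposited scale, 2 were called lower, and the median was -0.42 (0.11 after centring on the mature OSN list). Ccdc40 was 9.99, 10.06, 9.87 and 9.77 in controls and 9.37, 9.14, 9.13 and 9.27 in knockouts. It had the second largest decrease of all members, at -0.70 ± 0.08 (adjusted p = 0.00035), and on the linear scale it fell by 38.2%. Its partner Ccdc39 was 10.60, 10.21, 10.91 and 10.62 in controls and 10.16, 10.07, 10.25 and 10.39 in knockouts. Control 2 fell among the knockouts, and Ccdc39 was not called (-0.37 ± 0.13, adjusted p = 0.167) except when control 2 was left out. Ccdc65, a subunit of the regulatory complex, was 10.22, 10.32, 10.19 and 10.11 in controls and 9.79, 9.74, 9.62 and 9.77 in knockouts (-0.48 ± 0.07, adjusted p = 0.00102). Its complex partner Drc1 differed by -0.16 ± 0.08 and was not called (adjusted p = 0.289). RefSeq places Tbc1d16 across Ccdc40, and the cluster of Tbc1d16 differed by -0.031 (adjusted p = 0.906). The gene beyond it, Cbx8, was called lower (-0.44, adjusted p = 0.00249), and on the other side Gaa and Eif4a3 were not called (0.11 and -0.021).

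None of the 3 radial spoke head genes was called by limma, although their differences on the deposited scale were all negative (median -0.18, 0.35 after centring on the mature OSN list). Rsph4a was 11.15, 11.19, 10.96 and 11.10 in controls and 11.03, 10.84, 10.45 and 10.59 in knockouts. Knockout 1 lay among the controls and knockouts 3 and 4 well below them (-0.37 ± 0.12, adjusted p = 0.109). Rsph4a passed the test without knockout 1, and also with a block for title series or with array weights. Rsph1 and Rsph9 differed by -0.18 and -0.044.

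In the central apparatus, 1 of 5 genes was called, with a median of -0.059 (0.47 after centring on the mature OSN list). Spef2, whose product lies in the central pair projections and is also needed in sperm tails, was 12.22, 11.96, 12.29 and 12.20 in controls and 11.70, 11.61, 11.53 and 11.63 in knockouts. The groups did not overlap at this cluster, the brightest of its 22, and the difference was -0.55 ± 0.08 (adjusted p = 0.00115). Hydin and Spag16 differed by -0.20 and -0.059, and Spag6 and Spag17 by 0.091 and 0.24, none of them called. Of the 3 tektins, filament proteins that run along the doublets, only Tekt1 was called by limma. Tekt1 was 9.24, 9.41, 9.34 and 9.25 in controls and 8.82, 8.92, 8.89 and 8.89 in knockouts (-0.43 ± 0.06, adjusted p = 0.00103). Tekt4 and Tekt2 differed by -0.21 and 0.073.

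The 5 remaining members have looser ties to the axoneme, and all lay lower in every knockout than in any control on the deposited scale (median -0.37, 0.16 after centring on the mature OSN list). Dcdc2a, which encodes a doublecortin-domain protein that binds microtubules, was 11.10, 11.07, 11.19 and 11.19 in controls and 9.50, 9.48, 9.22 and 9.47 in knockouts. The drop of Dcdc2a was several times the spread within either group, at -1.72 ± 0.08 (adjusted p = 1.1e-06), and on the linear scale it fell by 69.6%. It was -1.59, -1.97 and -1.72 within title series 5, 7 and 9, and it remained called lower after centring on the mature OSN list (-1.19), as no other member did. Its nearest measured neighbours Mrs2 and Nrsn1 differed by 0.15 and 0.0070 and were not called. Wdr38, which encodes a WD-repeat protein, was 9.53, 9.48, 9.53 and 9.41 in controls and 9.12, 8.91, 9.20 and 9.06 in knockouts (-0.42 ± 0.07, adjusted p = 0.00413). Cfap157, which encodes a protein of cilia and sperm flagella, was 8.80, 8.80, 9.03 and 8.67 in controls and 8.52, 8.54, 8.38 and 8.36 in knockouts. Its difference was -0.37 ± 0.09 (adjusted p = 0.0206), and the call was lost without control 1, knockout 3 or knockout 4 (adjusted p up to 0.072). Ttll11, a tubulin polyglutamylase gene, ranged from 9.06 to 9.26 in controls and from 8.83 to 9.01 in knockouts (-0.27 ± 0.07, adjusted p = 0.0341), and only without control 2 or knockout 3 did it stay called (adjusted p otherwise up to 0.106). Dynlrb2, a dynein light chain gene of the roadblock family, ranged from 9.57 to 9.89 in controls and from 9.38 to 9.52 in knockouts, and did not pass the test (-0.22 ± 0.08, adjusted p = 0.147).

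**Figure D2:**
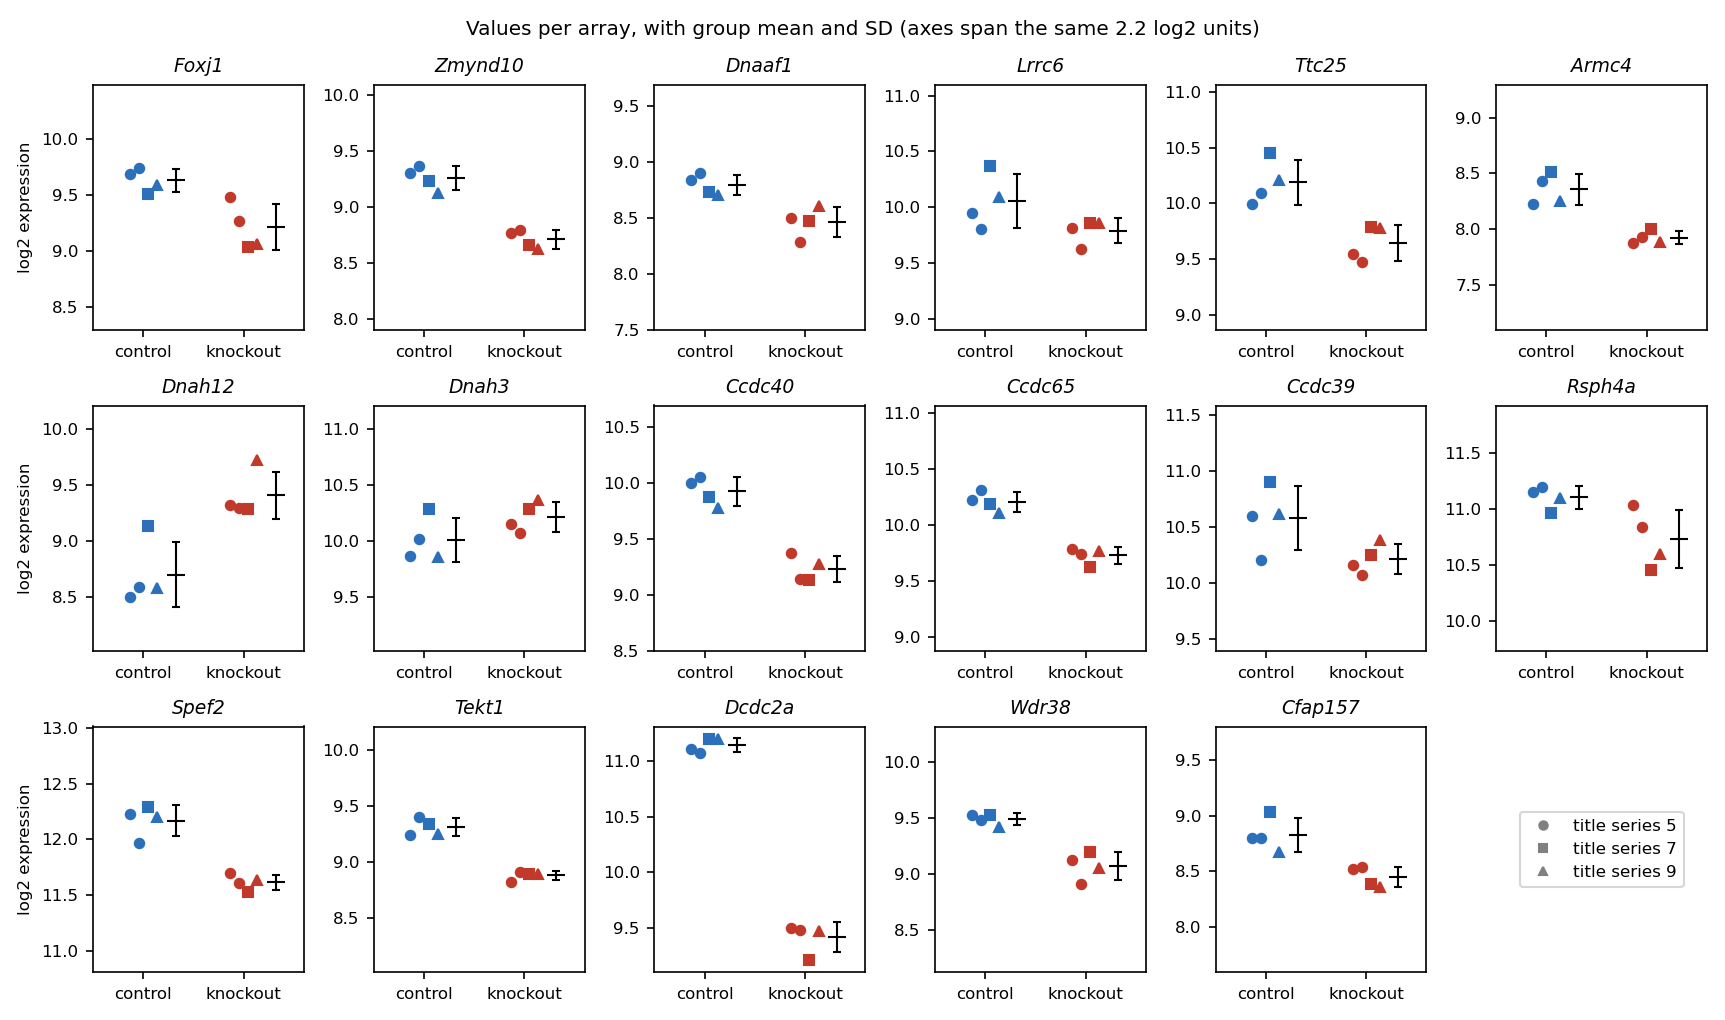
Log2 expression on each array (vertical axes, all spanning 2.2 log2 units) for the 17 members whose values are given by array under the naming rule, with the mean and SD of each group of 4 mice and symbols for the title series. Dcdc2a shows the widest gap between groups, Dnah12 is higher in every knockout, and Lrrc6, Dnah3, Ccdc39 and Rsph4a overlap between groups.

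The samples of a group differed in how far the members lay from the control means. The median deviation over the 47 members was 0.013, 0.071, 0.044 and -0.10 in controls 1 to 4 and -0.10, -0.18, -0.24 and -0.16 in knockouts 1 to 4. Control 4 (-0.105) lay just below knockout 1 (-0.100), so the groups overlapped on this median. Control 4 was below the other controls, and knockout 1 was above the other knockouts. Control 1, which lacked Cre, was the lowest control for 9 members and the highest for 5. Knockout 3 was the lowest of all 8 arrays for 18 members, 13 of which were among the 31 not called. The mean difference over the members was -0.18 within title series 5, -0.33 within series 7, which holds knockout 3, and -0.083 within series 9.

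**Figure D3:**
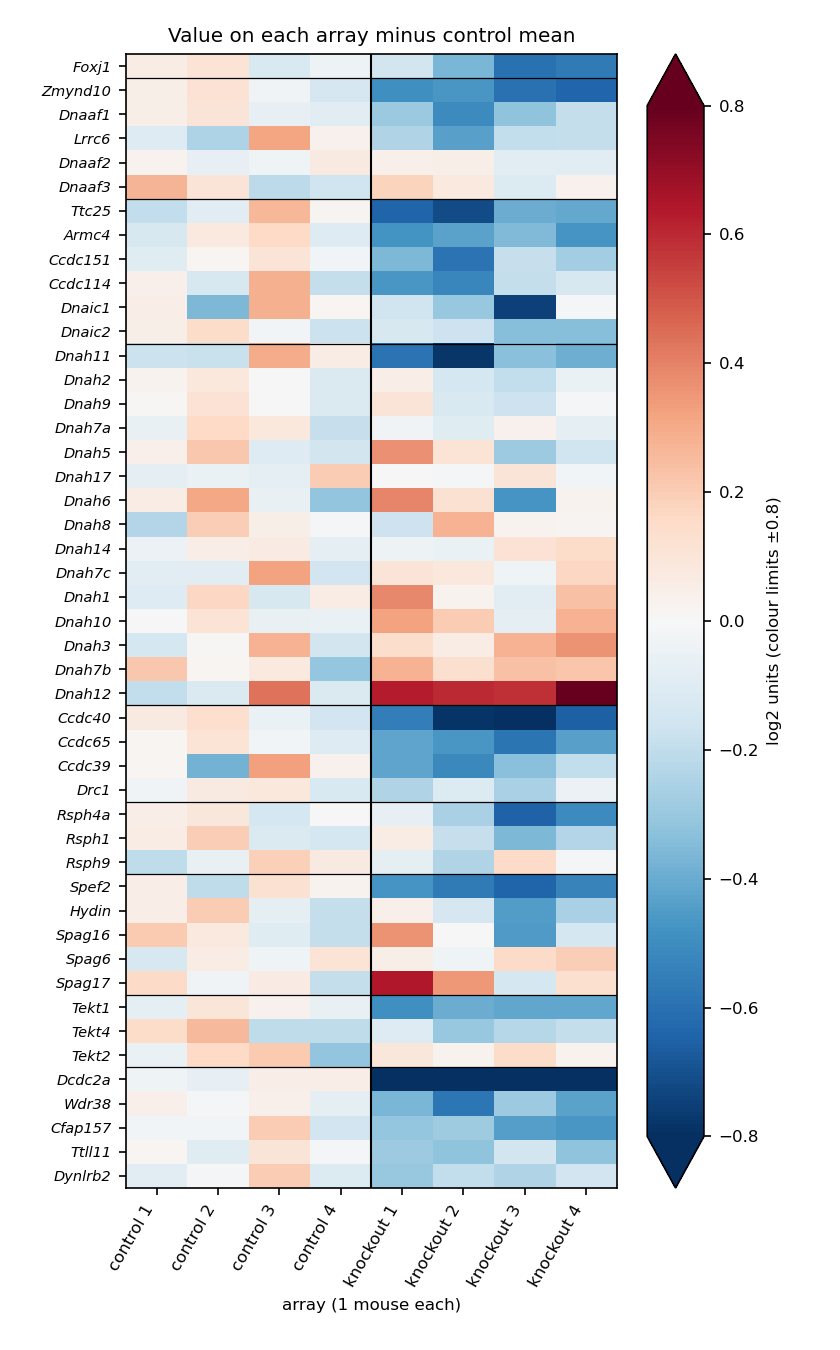
Value of each member on each array minus its control mean (colour, log2 units, limited to 0.8 in either direction), with members grouped by role and 1 column per mouse. Dcdc2a exceeds the colour limit in all 4 knockouts, most dynein heavy chains other than Dnah11 and Dnah12 are pale, and centring on the mature OSN list would shift all knockout columns upward relative to the controls.

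The arrays carry several clusters for 8 members, which allowed the direction to be read along a gene. Spef2 had 22 clusters with negative differences in all of them, from -0.66 to -0.09, and 10 were called lower. Its mean over the clusters differed by -0.39 and was not called in the limma fit (adjusted p = 0.0646). The 10 called clusters were the brightest, at 10.51 or more, and also the last in the array's numbering. The clusters not called lay at 10.21 or less, and their largest decrease was -0.38. Signal level and place along the gene were thus not separated, and the call does not stand for all clusters of Spef2. Dnah3 had 33 clusters, all with positive differences between 0.00096 and 0.22 and none called by limma. Both clusters of Armc4 differed by -0.43, and 1 of them was called. The clusters of Dnah10 (5), Dnah6 (3), Dnah17 (2) and Dnah7b (2) were all positive and not called. After centring on the mature OSN list every one of these differences moves upward by the same amount. Clusters of a gene were measured on the same 8 mice and are not further replicates.

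**Figure D4:**
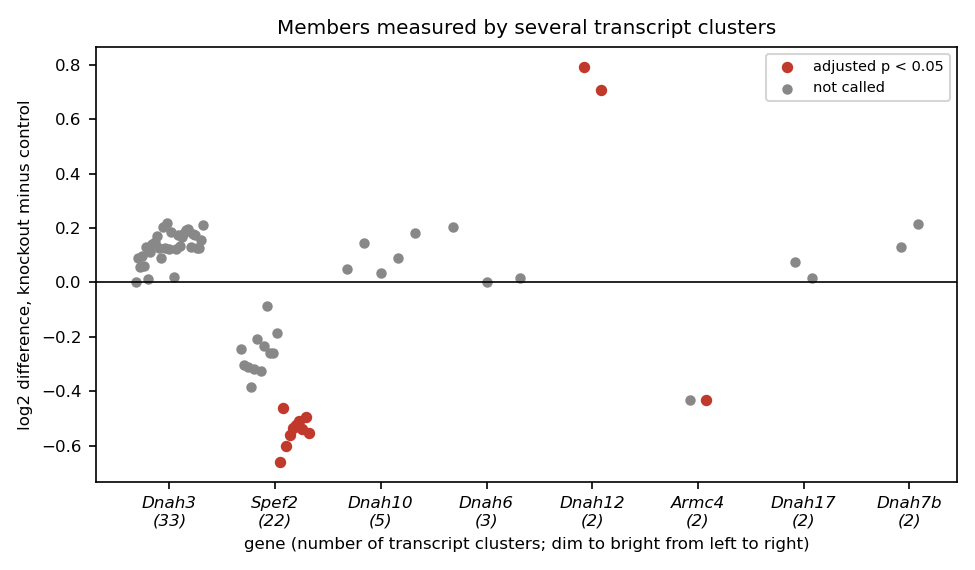
Log2 difference between knockouts and controls (vertical axis) for each transcript cluster of the 8 members that have more than 1, ordered within a gene from dim to bright. Red points were called at an adjusted p under 0.05; the 22 clusters of Spef2 are all negative and the 33 of Dnah3 all positive on the deposited scale.

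A wider list held 99 further motile cilium genes, 93 of them measured. Of these, 25 were called lower (26.9%, against 6.29% of all named clusters and 2.28% without receptors) and 1 higher (against 2.1%). The median was -0.18 (0.35 after centring on the mature OSN list). The 4 with the smallest p were Drc7, a subunit of the nexin-dynein regulatory complex (-0.71 ± 0.07), Dnajb13, a radial spoke gene (-1.004 ± 0.097), Cfap77 (-0.67 ± 0.07) and Oscp1 (-0.51 ± 0.05). Their adjusted p ran from 5.09e-05 to 0.000152, and all 4 were called in every leave-out. Tppp3, a gene for a protein that promotes tubulin polymerisation, was the 1 called higher (0.53 ± 0.09, adjusted p = 0.00443) and is named because it stood alone. Dnah12 and Tppp3 were thus the called increases, 2 of 140 measured axonemal genes of both lists. This is no larger a share than the 2.1% of all named clusters called higher.

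Other regulators of the multiciliated state were read beside Foxj1. The 14 measured genes include the RFX and cell cycle factors that act before Foxj1 or beside it. Of these, 0 were called lower by limma, against 6.29% of all named clusters, too few genes to set that count apart from the background share. Another 2 were called higher, against 2.1% (4 with a block for title series, against 4.16%). At an unadjusted p under 0.05, 2 were lower and 5 higher, against 8.87% and 9.3% of all named clusters. All knockouts lay below all controls in 2 and above them in 3 (7.83% and 6.42% of all named clusters). The median of the list was 0.082 (0.61 after centring on the mature OSN list). E2f5 rose by 0.31 ± 0.07 (adjusted p = 0.0149) and Gmnc by 0.29 ± 0.07 (adjusted p = 0.0362), and the call of E2f5 was lost without knockout 4 (adjusted p = 0.054). Gmnc stayed called only without control 4 or knockout 2 (adjusted p otherwise up to 0.123). The intraflagellar transport and BBSome genes serve all cilia, those of OSNs included. Of 38 measured, 5 were called lower by limma (13.2%, against 6.29% of all named clusters and 2.28% without receptors) and 0 higher. At an unadjusted p under 0.05, 14 were lower and 1 higher, against 8.87% and 9.3% of all named clusters. All knockouts lay below all controls in 12 and above them in 1 (7.83% and 6.42% of all named clusters). The median was -0.14 (0.39 after centring on the mature OSN list). The count called lower was 10 with a block for title series, 11 with array weights, and 3 without control 1, control 2, knockout 2, knockout 3 or knockout 4. The 5 were Ttc8 (-0.56), Arl3 (-0.33), Ift172 (-0.30), Bbs1 (-0.28) and Ift140 (-0.29), with adjusted p up to 0.0382, the last named after its value was seen. Bbs1 lost its call in 6 leave-outs (all but control 3 and knockout 1) and Ift140 in 7 (all but control 4), with adjusted p up to 0.115.

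Markers of cell types were read beside these results. Of 19 mature OSN markers, 16 were called lower (84.2%, against 6.29% of all named clusters). The mean level of the 19 was between 12.18 and 12.21 in controls and between 11.60 and 11.70 in knockouts. Of 21 markers of respiratory secretory cells and glands, which neighbour the multiciliated cells, 0 were called in either direction by limma and 0 had an unadjusted p under 0.05. Over all named clusters 6.29% were called lower and 2.1% higher, and 8.87% and 9.3% had such an unadjusted p. With 21 genes, a count of 0 is hard to set apart from these shares. The mean level of the 21 ran from 10.89 to 11.18 in controls and from 10.83 to 11.26 in knockouts, so the groups overlapped, and the median difference was -0.0020. The brightest of them, the secretory genes Bpifa1 and Obp2a, differed by -0.0020 and -0.054. Knockout 3, the lowest array for many members, also had the lowest median for these markers, at -0.19 relative to the control means. The part of either marker list in the members' differences was not tested.

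Members lay on 17 chromosomes, and 4 of them shared chromosome 2 with Lhx2. Knockouts carried 2 floxed Lhx2 alleles and controls 1, so sequence linked to the floxed allele and the deletion itself cannot be told apart for genes near Lhx2. Wdr38, Ttll11 and Cfap157, with 8, 42 and 72 measured genes between them and Lhx2, were called lower, and Spag6, 316 genes away, was not. Of the 100 nearest genes other than odorant receptors, 50 on each side of Lhx2, 4 were called lower and 5 higher, or 9% in either direction against 4.87% of the 1459 such genes on chromosome 2. On other chromosomes 12 of 43 members were called lower and 1 higher (30.2% called, median -0.18 on the deposited scale). On chromosome 2 it was 3 of 4 members (75%, median -0.32). The contrast between these few members and the others was not tested.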

How the data were processed

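Olfactory mucosa of 8 mice was profiled on 1 array each, and the authors deposited log2 expression values per transcript cluster, made from equal amounts of total RNA with Affymetrix Expression Console. Its version and summarisation settings, and the genome build of the array, are not given in the labels or methods. Values from 2.35 to 14.6 were taken unchanged. Combining all exons of a gene in 1 value can hide changes of single isoforms, and with no counts on an array, precision depends on the 4 mice per group.

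Of 35557 clusters, 21789 had 1 gene symbol (21698 of them found by Entrez ID in RefSeq GRCm38.p6), 1621 more than 1 symbol and 12147 no symbol. The 23410 with a symbol were tested and genes named from those with 1, by the cluster of highest mean. The difference between knockouts and controls was fitted with limma 3.58.1 (lmFit, then eBayes) in R 4.3.3, in a procedure tested on simulated data. Members, gene lists and tests were chosen with earlier results of these data known. Groups came from the genotypes in the labels, and litters are not known for single mice, so p-values measure the spread between these mice. Values by array are given for Foxj1, the 12 called members with the smallest p and the brightest member of each role. Of each other list up to 4 called genes, or the 2 brightest where none was called, were eligible. Values by array of Dnah11 and ranges of other members were added after they were seen. Alternatives were 3 other scalings, a filter on dim clusters, title series as a block, array weights, the methods' t-test, all clusters, the mean of a gene's clusters, and leaving out each array. Figures were drawn with matplotlib 3.10.9.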

Additional observations from a re-analysis of the deposited data

Results flagged for a closer look

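In 7 of 94 groups of 4 arrays, the highest or lowest array stood apart from the other 3 by more than the critical share of the group's range in Dixon's test, and chance gives such a gap in about 1 of 20 groups. Dcdc2a was lowest in knockout 3, at 9.22, with the next knockout at 9.47. Dnah12 was highest among controls in control 3, at 9.13, with the next at 8.58, and highest among knockouts in knockout 4, at 9.72, with the next at 9.32. Dnah17, which was not called, was highest in control 4 at 7.14 and in knockout 3 at 7.04. Dnah7c, also not called, was highest in control 3 at 7.65. Ttll11 was highest among knockouts in knockout 3, at 9.01. Knockout 3 accounted for 3 of the 7 and control 3 for 2.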

How the results depend on the processing

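Scaling moved the results most. With arrays centred on the mature OSN list, 1 member was called lower and 29 higher, against 3.58% and 92.6% of all named clusters, and the wider motile cilium list had 2 called lower and 63 higher. The members' median was then 0.33, and differences turned positive for Foxj1 (0.11), Ccdc65 (0.055), Tekt1 (0.10), Wdr38 (0.12), Armc4 (0.10), Cfap157 (0.16), Dnaaf1 (0.20), Dnah11 (0.0085), Ttll11 (0.26), Ccdc151 (0.18), Dnaic2 (0.29), Dynlrb2 (0.31), Drc1 (0.37), Tekt4 (0.32), Hydin (0.33), Rsph1 (0.35), Dnah2 (0.45), Dnah9 (0.48), Dnah7a (0.49), Rsph9 (0.49), Spag16 (0.47), Dnaaf2 (0.51), Oscp1 (0.020), Arl3 (0.20), Ift172 (0.23), Bbs1 (0.25) and Ift140 (0.25). Rsph4a (0.16), Ccdc39 (0.17), Ccdc114 (0.20), Lrrc6 (0.27) and Dnaic1 (0.23) also turned positive and were called on neither scale. These changes of sign follow from the construction, since the 19 markers themselves fell by 0.53 on average. A list that fell less would turn fewer of them. Centring on array medians kept 12 of the 16 calls and quantile normalization 13. The methods' t-test (p under 0.01 and a false discovery rate under 1%), run here on the deposited values without the study's rescaling, called 5 members lower and 0 higher, and 10 and 0 of the wider list. With all clusters tested, 9 members were called lower. In these last settings Foxj1 differed by -0.42 but was not called (adjusted p = 0.109 and 0.0821). Removing dim clusters left 30 members with a median of -0.33. The members dropped, other than Armc4 and Drc1, had differences of -0.085 (Dnah2) or above, so the median moved down. Leaving out each array in turn gave 10 to 13 members called lower, 17 to 24 of the wider list, a median between -0.25 and -0.13 (the last without knockout 3) and a Foxj1 difference between -0.51 and -0.36. Dcdc2a, Ccdc40, Zmynd10, Ccdc65, Tekt1, Spef2, Wdr38, Armc4, Ttc25 and Dnah12 were called in all 8. The IFT and BBSome genes went from 5 called lower to 10 with title series as a block and 11 with array weights. Both settings kept all 16 member calls and added Rsph4a and Dnaic2. No paired analysis was possible because the replicate numbers follow accession order and pair no mice, so that the block by title series, which groups 4, 2 and 2 mice, was the only matched fit.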
